A study of Mus musculus with 2744 samples.

Results

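The 32 genes described here are the glucose transporters, glycolytic enzymes, monocarboxylate transporters and pyruvate dehydrogenase genes of the mouse, taken by gene symbol from the 23968 genes of the count tables. All 32 were present. They fall into 16 groups of isoforms, related enzymes or subunits along the pathway, and 11 of these groups hold more than 1 gene. Glycolysis splits glucose into pyruvate in the cytosol, and pyruvate is then either reduced to lactate by lactate dehydrogenase or carried into mitochondria and oxidised by the pyruvate dehydrogenase complex. Most steps have several isoforms with different tissue distributions. Stem cells and dividing progenitors are known for high glycolytic flux, whereas neurons are known for a greater reliance on oxidative metabolism and for their own isoforms, among them the glucose transporter GLUT3 (Slc2a3) and neuron-specific enolase (Eno2).

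Single-cell RNA sequencing followed mouse embryonic stem cells through embryoid bodies toward motor neurons, with cells taken daily from Day 2 to Day 6. There were 2 experiments, which the series describes as biological replicates: a main experiment of 24 plates and a pilot of 11 plates. Unselected cells were taken on Days 2, 3, 4, 5 and 6 in both. Cells labelled Day 6 eGFP++ came from both experiments and cells labelled Day 6 eGFP+ from 1 plate of the main experiment. What drives eGFP, the strain of the cells and the gates of the sort are not given in the sources used here, and no control without differentiation was part of the comparison. Of 2744 wells, 2448 had reads of 500 or more genes and were kept. Their reads were added up per group and experiment, giving 13 sums of 39 or more cells and 16370502 to 100972780 gene reads. Levels are given in CPM, reads of the gene scaled to a common total of gene reads in each sum. The experiment is the replicate, so each group has n = 2 sums except Day 6 eGFP+, which has 1 and enters no test.

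The labels were checked on markers. Summed CPM of 6 pluripotency genes went from 4356 (main) and 3099 (pilot) on Day 2 to 12.3 and 31.4 on Day 6. Summed CPM of 6 neuronal genes was 3357 and 2533 on Day 6 and 8043 and 9054 in Day 6 eGFP++ cells. Defining markers of astrocytes (Gfap, Aqp4, Gjb6, S100b) were all at 0 in the Day 6, eGFP+ and eGFP++ sums. In the Day 6 eGFP+ sum the neuronal genes reached 1074 CPM and the progenitor genes 957 CPM, against 137.9 CPM for the progenitor genes in the main eGFP++ sum. Spike-in reads made up 2.98% of gene and spike-in reads on Day 2 and 15.6% on Day 6 in main cells; the pilot had 4.75% and 15.4%. CPM is relative to gene reads, so the spike-in share moved with the day beside every level below, and its part in the results was not tested. In sums over cells, fewer cells with a transcript and fewer transcripts per cell cannot be told apart, and for this reason the share of cells with a read is given beside the CPM.

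Promoter sequences are shown for the lactate dehydrogenase pair, whose balance changed over the days, and for Pgam1, whose ratio to Bpgm also changed. Each line holds the 250 bases before the RefSeq start, with ACGTG (or CACGT, its reverse complement) in capitals. ACGTG is 1 form of the core that hypoxia-inducible factors bind, and it is also part of CACGTG, an E-box bound by Myc proteins. Other forms of the core were not searched, so a window without ACGTG may still hold one.
Ldha (GRCm38, chr7:46845554-46845803, plus strand): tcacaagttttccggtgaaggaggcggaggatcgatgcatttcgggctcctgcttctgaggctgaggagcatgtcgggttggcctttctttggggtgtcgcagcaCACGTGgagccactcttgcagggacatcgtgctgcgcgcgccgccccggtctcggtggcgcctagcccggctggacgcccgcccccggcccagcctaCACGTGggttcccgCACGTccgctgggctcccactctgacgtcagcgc
Ldhb (GRCm38, chr6:142507958-142508207, minus strand): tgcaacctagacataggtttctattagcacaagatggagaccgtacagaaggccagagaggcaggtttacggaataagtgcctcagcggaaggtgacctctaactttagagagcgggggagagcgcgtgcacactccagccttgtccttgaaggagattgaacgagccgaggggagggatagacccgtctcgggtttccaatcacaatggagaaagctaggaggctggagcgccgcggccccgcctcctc
Pgam1 (GRCm38, chr19:41911621-41911870, plus strand): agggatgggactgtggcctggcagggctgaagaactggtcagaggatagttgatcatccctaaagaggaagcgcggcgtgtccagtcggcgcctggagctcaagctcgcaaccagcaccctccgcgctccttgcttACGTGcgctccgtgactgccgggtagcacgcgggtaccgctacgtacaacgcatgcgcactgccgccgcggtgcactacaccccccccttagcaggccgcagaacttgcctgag
The Ldha window held 5 matches over both strands, of which 2 copies of CACGTG gave 4, and the Ldhb window held 0. Pgam1 had 1 match. Bpgm had 0, but its window overlaps an annotated first exon and is not printed. Of the 32 genes, 31 had a RefSeq window, and 13 of these (41.9%) held ACGTG on either strand, against 16.6% of all 32851 windows of the same length. CACGTG was present in 6 (19.4%), against 6.02% of all windows. All windows were taken as background without matching for base composition, whose part in these shares was not tested. The windows counted for Aldoa and Gapdh start 8661 and 694 bases from the start of the GENCODE transcript used. These matches are letters in a window and say nothing of binding.

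The whole module took between 0.873% and 1.81% of gene reads in every sum. Together the 32 genes took 0.894%, 1.35%, 0.873%, 1.30% and 1.09% of gene reads on Days 2, 3, 4, 5 and 6 of the main experiment. In the pilot the same days gave 1.25%, 1.81%, 1.21%, 1.08% and 1.13%. Day 3 was the highest day in both experiments. The eGFP++ sums stood at 1.06% and 0.998%, and the eGFP+ sum at 0.984%. The 2 sorted sums of the main experiment lay within the range of its unselected days, and the eGFP++ sum of the pilot lay below every unselected day of the pilot.

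**Figure D1:**
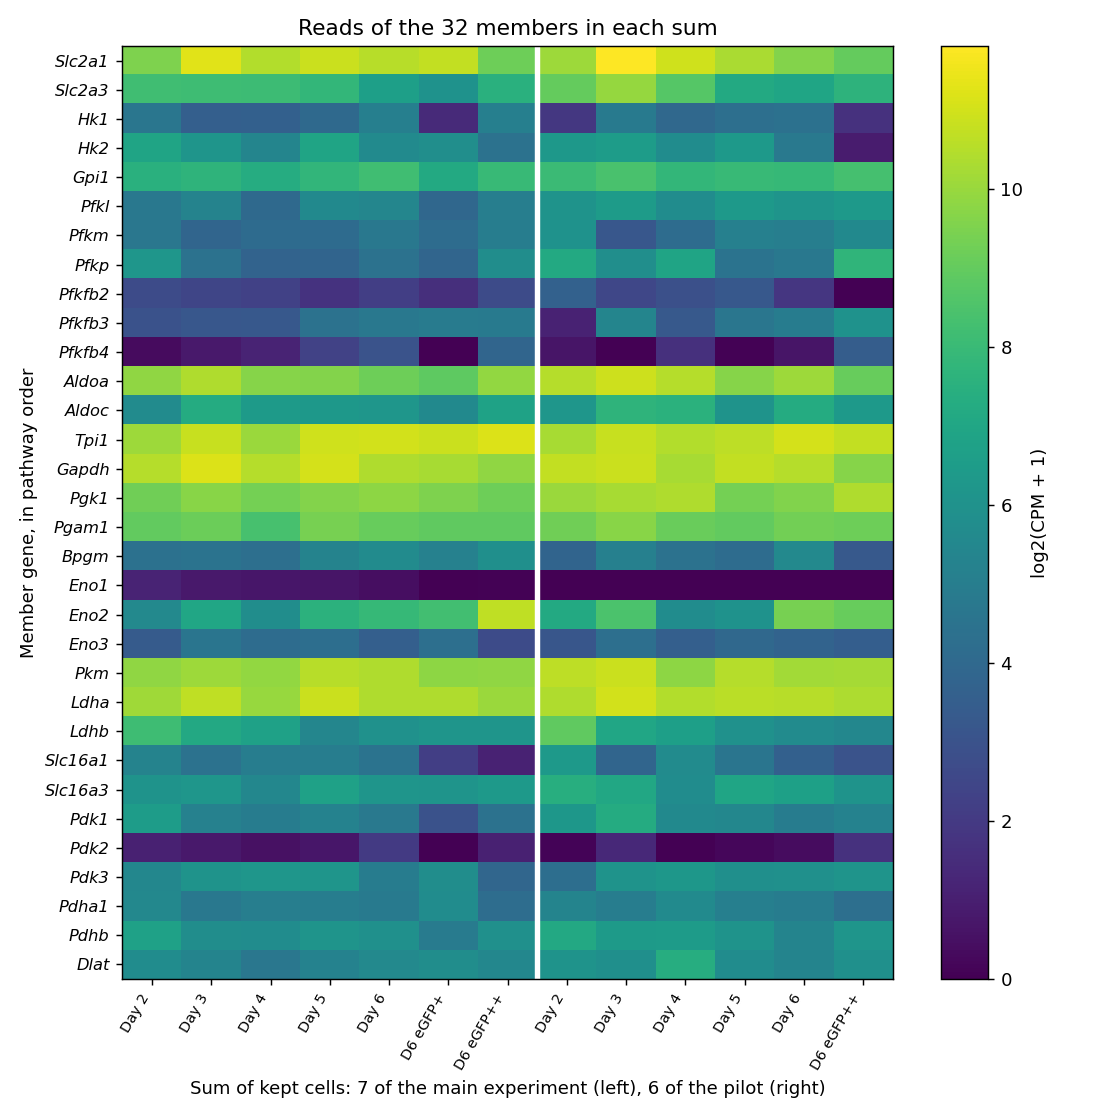
Heat map of log2(CPM + 1) for the 32 genes (rows, in pathway order) in the 7 sums of the main experiment (left of the white line) and the 6 sums of the pilot (right). Tpi1, Gapdh, Pkm, Ldha, Aldoa and Slc2a1 stayed bright in every sum, Eno1 and Pdk2 stayed near 0, and Ldhb darkened from Day 2 onward.

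Single genes were compared between groups with edgeR's quasi-likelihood test on the 12 sums that have a partner in both experiments, with the experiment as a term, and p-values were adjusted over all 16080 genes tested. All 32 members were among them. From Day 2 to Day 3, 0 of the 32 members passed an adjusted p of 0.05, and over all genes 0.0498% passed (8 genes). Between Days 3 and 4, Days 4 and 5, and Days 5 and 6, 0 members passed, where the share of all genes passing was 0% in each of the 3 comparisons. From Day 2 to Day 6, 1 of 32 members passed (Ldhb, lower), against 0.833% of all genes. Between Day 6 eGFP++ and unselected Day 6 cells, 0 members passed, against 0.0311% of all genes. At an unadjusted p under 0.05 the members numbered 5, 4, 2, 0, 8 and 3 in these 6 comparisons, where the shares of all genes were 3.65%, 2.69%, 3.7%, 3.17%, 13.7% and 6.29%. With DESeq2, 5 members passed from Day 2 to Day 6 (15.6%), against 15.5% of all genes with an adjusted p, so the members were near the background. DESeq2 called 1 member from Day 2 to Day 3, against 1.72% of genes, and 1 between eGFP++ and Day 6, against 3.99%. It called 0 members in the other 3 comparisons, against 1.11%, 1.39% and 0.967%. The median log2 difference of the members was 0.29 from Day 2 to Day 3, where all genes had 0.09, and -0.62 from Day 3 to Day 4, where all genes had -0.02. Taken gene by gene, 16 of 32 members were higher on Day 3 than on Day 2 in both experiments, where 24.8% of all genes tested were, and 19 of 32 were lower on Day 4 than on Day 3 in both (59.4%, against 21.2%). Fewer than 3 reads were set to 3 here, so genes sparse in the pilot took their direction from its library totals. Eno1, at that floor, stood at -0.45 on Day 3 against Day 2 and at 0.255 on Day 4 against Day 3. Such genes could not count as higher and then lower in both experiments, which holds down the 24.8% and the 21.2%. The members' shares can therefore not be read against them. From Day 2 to Day 6 the medians were -0.06 for members and 0.17 for all genes. These comparisons share their sums with their neighbours, so a high Day 3 enters both of the first comparisons.

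Isoform choice was followed with 15 ratios of reads between 2 genes of the same sum, which do not depend on how the library is scaled. Bpgm/Pgam1 and Pdha1/Ldha set different enzymes against each other and are not isoform pairs. Each ratio's slope on the day, in log2 units per day and averaged over both experiments, was set against every ordering of the 5 days within each experiment (exact permutation test, two-sided, Benjamini-Hochberg over the 15 ratios). The ratios and their genes were chosen with earlier results of these data known. In 3 of the 15 the trend passed: Ldhb fell against Ldha, Slc2a3 fell against Slc2a1, and Bpgm rose against Pgam1. In all 3 the slope had the same sign and nearly the same size in both experiments. The same held for Pfkp/Pfkl (-0.60 and -0.64) and Aldoc/Aldoa (0.21 and 0.25), which did not pass. The smallest p that 1 experiment alone allows is 0.0167, from its 120 orderings.

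**Figure D2:**
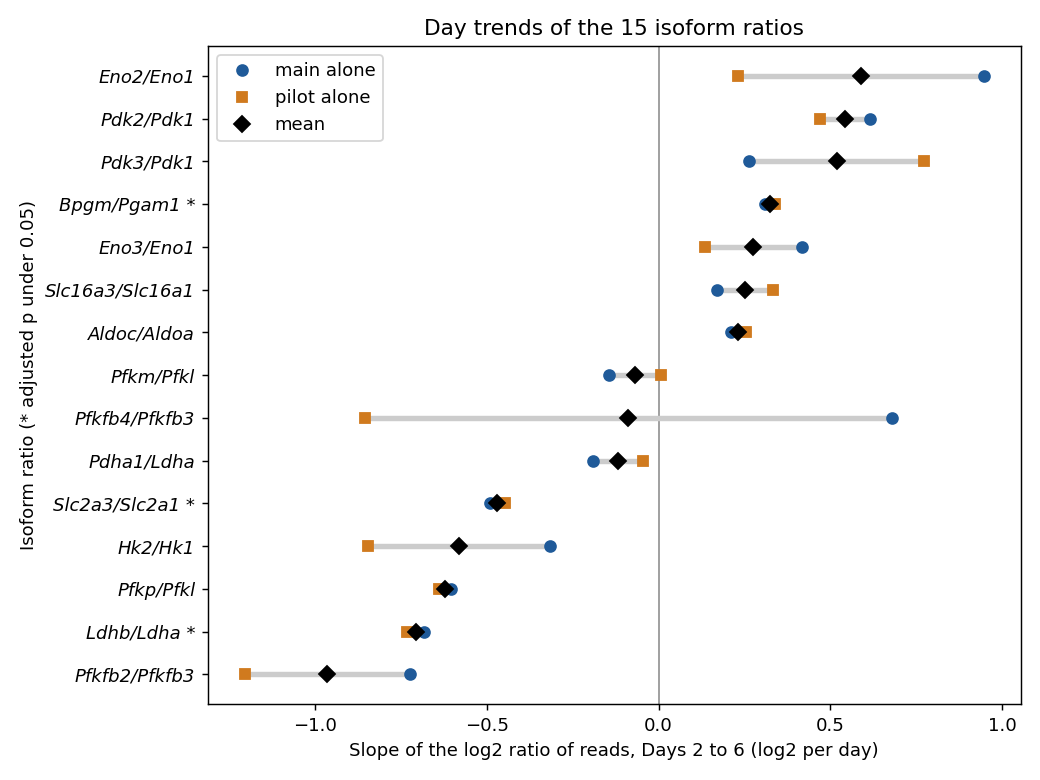
Slope of the log2 ratio of reads on the day (x axis, log2 per day, Days 2 to 6) for each of the 15 ratios (y axis), in the main experiment (circles), the pilot (squares) and their mean (diamonds); an asterisk marks an adjusted p under 0.05. Pfkfb2/Pfkfb3 had the steepest mean slope, -0.96, yet its 2 experiments lay far apart. The 2 experiments nearly coincided for Ldhb/Ldha, Slc2a3/Slc2a1 and Bpgm/Pgam1, and also for Pfkp/Pfkl and Aldoc/Aldoa, which did not pass.

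Lactate dehydrogenase interconverts pyruvate and lactate. Its A subunit (Ldha, chr7:46841475-46855627) is known to predominate in glycolytic tissue and its B subunit (Ldhb, chr6:142490249-142507957) in oxidative tissue such as heart. Ldhb stood at 281.6, 140, 106.8, 42.4 and 61.9 CPM on Days 2 to 6 of the main experiment. In the pilot it stood at 490.2, 126.9, 102.04, 62.8 and 51.6 CPM. Day 2 was the highest sum in each experiment, the 2 Day 6 sums lay below both Day 2 sums, and in both experiments most of the drop in CPM had occurred by Day 3. Ldhb fell by 2.87 on the log2 scale from Day 2 to Day 6 (SE 0.49, edgeR adjusted p = 0.0272), which was a 4.55-fold lower CPM in the main experiment and a 9.51-fold lower CPM in the pilot. The call was lost without the main Day 6 sum (edgeR adjusted p = 0.159), without the pilot Day 2 sum (0.271) and without the pilot Day 6 sum (0.333), and the log2 difference then lay between -2.29 and -2.95.

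Ldha did not share this course. It had 1114, 1632, 1005, 1884 and 1333 CPM on Days 2 to 6 of the main experiment and 1372, 2055, 1391, 1519 and 1487 CPM in the pilot. The Day 6 and Day 2 sums of Ldha differed by 0.10 on the log2 scale (SE 0.29, edgeR adjusted p = 0.907). Of the reads of both genes, Ldhb's share went from 20.2% to 4.43% between Days 2 and 6 (main) and from 26.3% to 3.35% (pilot). The log2 ratio of Ldhb to Ldha went from -1.98 to -3.55, -3.23, -5.47 and -4.43 in the main experiment and from -1.48 to -4.02, -3.77, -4.60 and -4.85 in the pilot. Its slope was -0.68 and -0.73 per day (exact permutation p = 0.00444, adjusted p = 0.025). In the main experiment the 4 Day 2 plates lay between -2.05 and -1.92, above the -3.09 of the highest Day 3 plate. Plates of these days were also apart for ratios whose trend did not pass, among them Pfkp/Pfkl, Pdk3/Pdk1 and Aldoc/Aldoa. For Pdha1/Ldha they lay between -4.72 and -4.44 on Day 2 and between -7.10 and -5.66 on Day 3.

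Reads of Ldhb were found in fewer cells on the later days, which a lower level per cell would also give. With every cell thinned to 10000 reads, a Ldhb read was found in 77.7% of main Day 2 cells (exact 95% interval 73.1 to 81.97), 47.9% on Day 3, 32.7% on Day 4, 23.9% on Day 5 and 22.3% on Day 6. In the pilot Ldhb was found in 58.1%, 33.3%, 17.5%, 10.7% and 21.1% of cells. Unthinned, the Ldhb shares on Day 2 and Day 6 were 95.3% and 42.1% (main) and 78.7% and 49.3% (pilot). A Ldha read was found in 76.9% to 98.2% of thinned cells across the 13 sums. Transcripts of Isl1, Slc18a3 and Chat, genes of motor neurons, appeared in at most 1.35% of thinned Day 2 cells, and unthinned in at most 2.77%. Dppa5a, a gene of pluripotent cells, appeared in 3.19% and 2.56% of thinned eGFP++ cells and in 8.13% and 7.69% unthinned. These are the levels to set beside the shares of cells. In eGFP++ cells Ldhb remained low, at 71.02 and 43.3 CPM, and at 70.5 CPM in eGFP+ cells. Of the last 500 bases of Ldhb, 24.4% of the 50-base stretches also occur in Gm5514, and reads from such stretches may have been left uncounted.

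**Figure D3:**
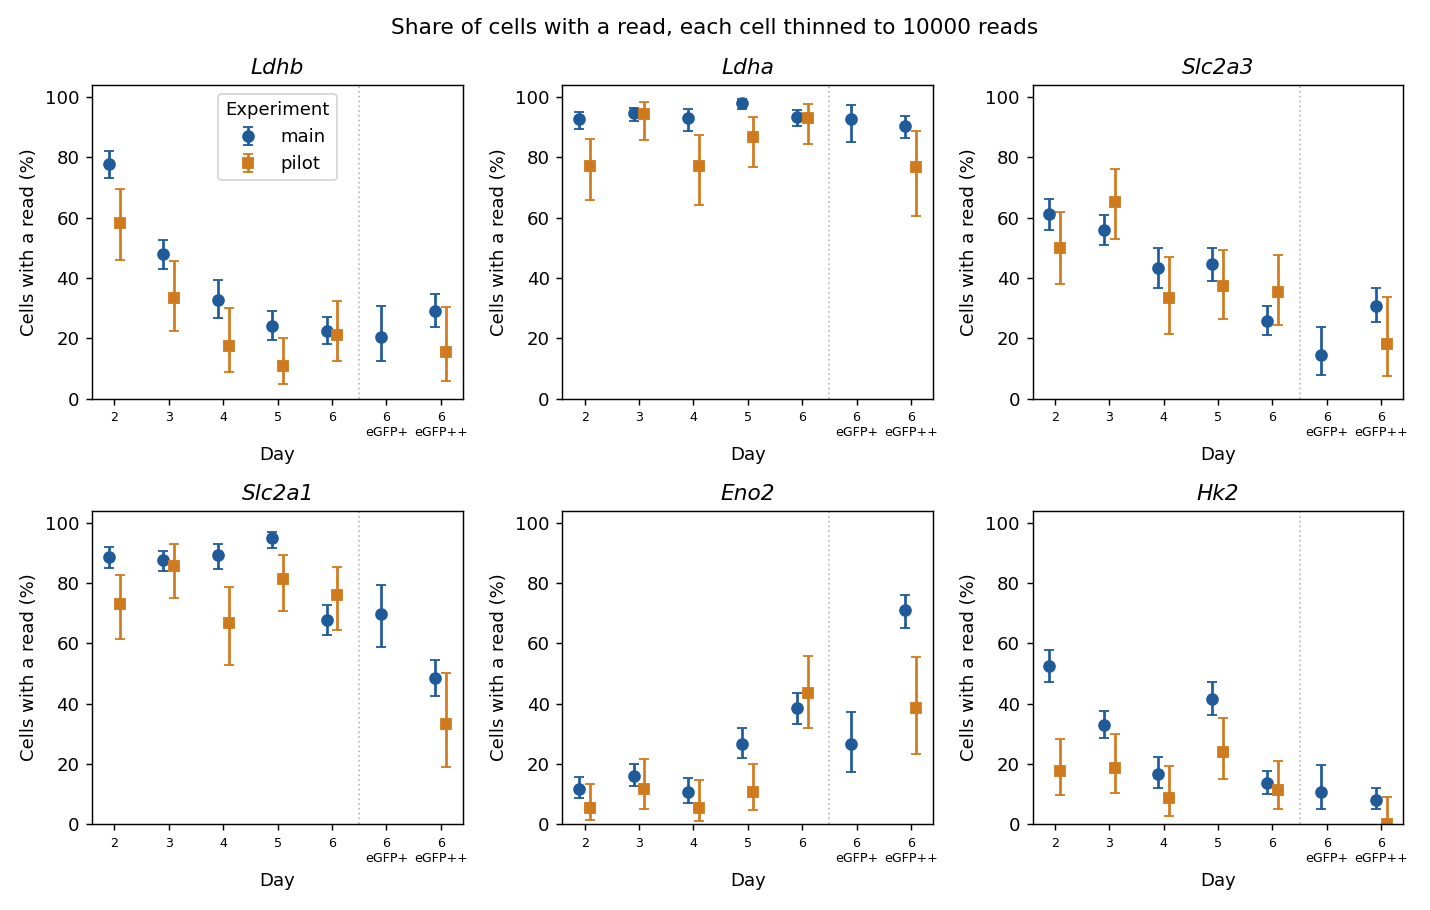
Percent of cells with at least 1 read of the gene after thinning each cell to 10000 reads (y axis) by day and sort (x axis) in the main experiment (circles) and the pilot (squares), with exact 95% binomial intervals that cover counting error only. Ldhb declined from 77.7% to 22.3% of main cells while Ldha stayed high, and Eno2 reached 70.9% in main eGFP++ cells.

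The balance of the glucose transporters also shifted over the days, and it stood apart again in the sorted cells. GLUT1 (Slc2a1, chr4:119108711-119137983) is the widespread transporter and GLUT3 (Slc2a3, chr6:122727809-122801640) is a high-affinity transporter of neurons that is also present in pluripotent cells. Slc2a1 stood at 736, 2499, 1405, 1871 and 1467 CPM on Days 2 to 6 of the main experiment and at 1099, 3594, 1969.7, 1257 and 785 CPM in the pilot. Its Day 3 sum was 3.39-fold (main) and 3.27-fold (pilot) its Day 2 sum, a log2 difference of 1.68 (SE 0.40, unadjusted p = 0.00141, edgeR adjusted p = 0.631) that did not pass. Slc2a3 stood at 291.2, 279.9, 274.5, 227.7 and 101.5 CPM in the main experiment and at 515, 977, 408.6, 144.7 and 120.5 CPM in the pilot. Both Day 6 sums of Slc2a3 lay below both Day 2 sums, by 1.91 on the log2 scale (SE 0.52, edgeR adjusted p = 0.142), which did not pass. It passed with DESeq2 (adjusted p = 0.0202), with edgeR on the 2 groups alone (0.0241), with thinned cells (0.0361) and with cells counted (0.00111). Of all genes, 15.5%, 3.62%, 6.24% and 38.4% passed in these settings, in the same order.

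The log2 ratio of Slc2a3 to Slc2a1 was -1.34, -3.16, -2.36, -3.04 and -3.85 on the 5 days of the main experiment. In the pilot it was -1.09, -1.88, -2.27, -3.12 and -2.70. Its slope was -0.49 and -0.45 per day (exact permutation p = 0.005, adjusted p = 0.025). Day 2 was the highest day in both experiments. In the eGFP++ sums the ratio stood at -1.68 and -1.40, near the Day 2 values and above every Day 3 to Day 6 sum. The eGFP+ sum had -4.74, the lowest of the 13. Within the main experiment the 3 eGFP++ plates lay between -2.19 and -1.04 and the 4 unselected Day 6 plates between -4.18 and -3.70. These plates did not overlap, but plates of 1 experiment are no replicates. Plates were also apart for Ldhb/Ldha (-4.73 to -4.27 on Day 6, -3.95 to -3.83 in eGFP++), Pfkp/Pfkl, Bpgm/Pgam1, Slc16a3/Slc16a1 and Eno2/Eno1. Slc2a3 gave 6.47% and 13.3% of the reads of both transporters in unselected Day 6 cells and 23.7% and 27.5% in eGFP++ cells. Both genes contributed: Slc2a1 was 2.51-fold and 1.49-fold lower in eGFP++ than in Day 6 cells and Slc2a3 was 1.79-fold and 1.66-fold higher, while neither gene passed (edgeR adjusted p = 0.743 for each). Summed cycling markers were 1045 and 1833 CPM in Day 6 and 270.8 and 197.1 CPM in eGFP++ cells; their part in the ratio was not tested.

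Phosphoglycerate mutase 1 (Pgam1, chr19:41911923-41918660) converts 3-phosphoglycerate to 2-phosphoglycerate, and bisphosphoglycerate mutase (Bpgm, chr6:34476207-34505613) makes 2,3-bisphosphoglycerate from the preceding intermediate. Bpgm had 20.05, 21.5, 18.9, 38.5 and 50.3 CPM on Days 2 to 6 of the main experiment and 13.04, 34.6, 20.9, 17.01 and 46.2 CPM in the pilot. Day 6 was the highest unselected sum of Bpgm in both, and the main eGFP++ sum was higher still at 58.4 CPM. Pgam1 lay between 334.8 and 849 CPM over the 10 unselected sums, with no common order of days. The log2 ratio of Bpgm to Pgam1 went from -4.66 to -3.40 in the main experiment and from -5.56 to -3.75 in the pilot, with slopes of 0.31 and 0.34 per day (exact permutation p = 0.00347, adjusted p = 0.025). Single plates of 1 day could lie further apart than this change. They spread from -10.72 to -4.34 on main Day 3, from -7.75 to -4.73 on pilot Day 2 and from -9.26 to -4.19 on pilot Day 4. The main Day 2 plates (-5.26 to -4.45) and main Day 6 plates (-3.60 to -3.27) did not overlap. Neither did those of ratios whose trend did not pass, such as Hk2/Hk1 (2.08 to 2.55 and 0.10 to 1.36). The eGFP++ sums disagreed, at -3.07 in the main experiment and -6.06 in the pilot, where 41.7% of the Bpgm reads came from 1 cell. Counting cells with a read in place of reads, the slope was 0.17 and did not pass (permutation adjusted p = 0.164).

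All 3 trends kept their direction when any of the 10 sums was left out, but the adjusted p then often rose above 0.05. For Slc2a3/Slc2a1 and Bpgm/Pgam1 it did so without the Day 2 or Day 6 sum of either experiment and without the pilot Day 4 sum, and for Ldhb/Ldha without the same sums and without the pilot Day 5 sum. The permutation adjusted p reached 0.167, 0.174 and 0.167 for Slc2a3/Slc2a1, Bpgm/Pgam1 and Ldhb/Ldha.

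**Figure D4:**
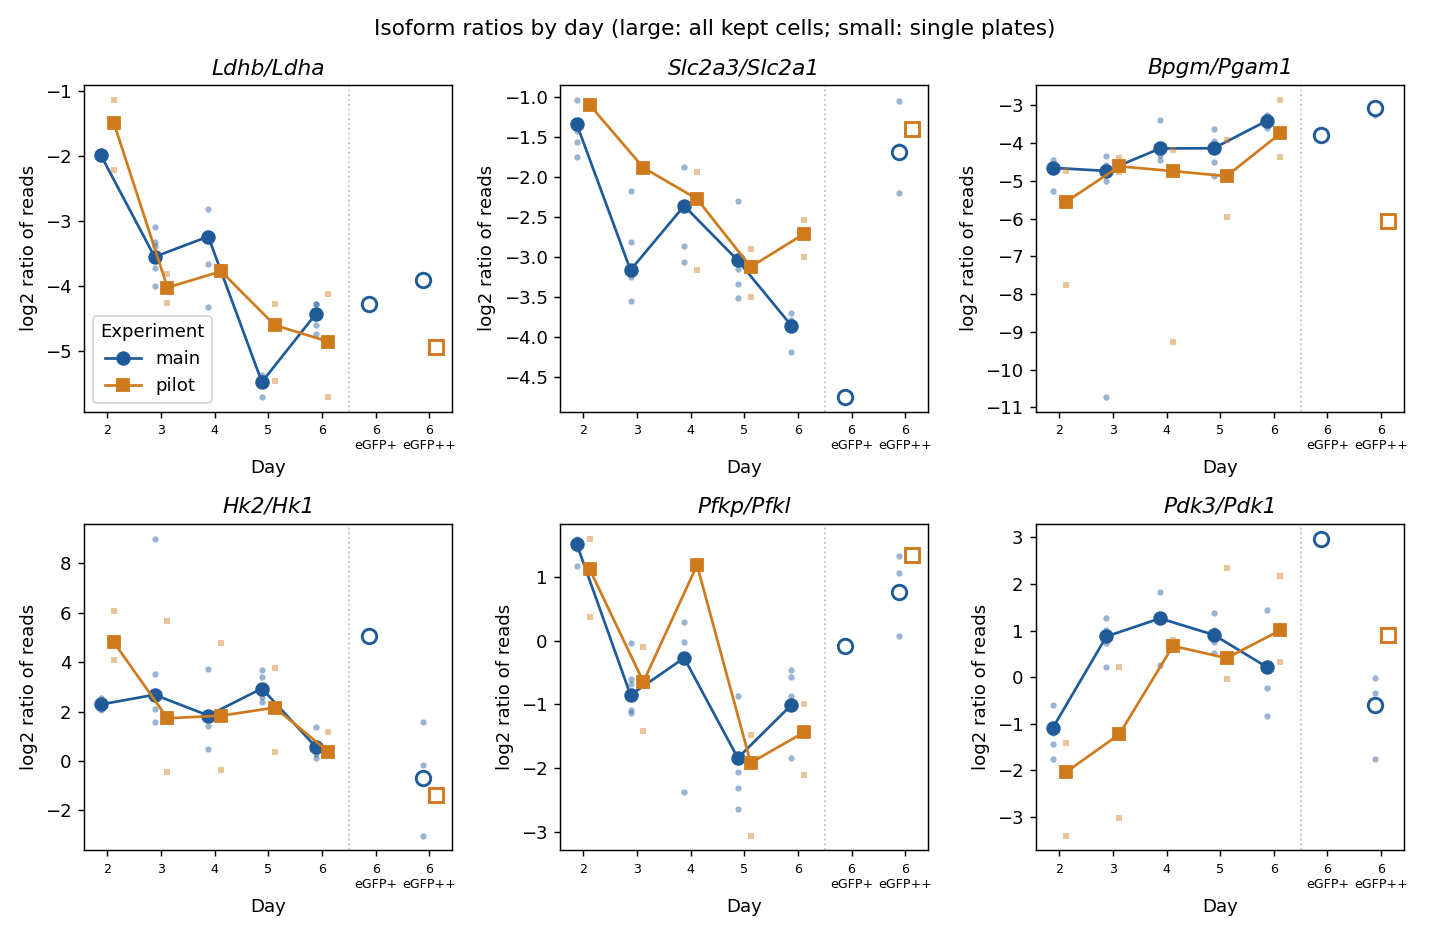
Log2 ratio of reads (y axis) by day and sort (x axis) for 6 gene pairs. Large symbols are sums over all kept cells of the main experiment (circles) and the pilot (squares). Lines join the unselected days, open symbols are sorted cells and small symbols single plates. Slc2a3/Slc2a1 declined to -3.85 and -2.70 on Day 6 and stood at -1.68 and -1.40 in eGFP++ cells, and Pfkp/Pfkl in eGFP++ cells likewise lay apart from Day 6. For Hk2/Hk1 the main eGFP++ plates spread from -3.02 to 1.58, around the main Day 6 plates (0.10 to 1.36).

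Hexokinases trap glucose as glucose 6-phosphate; Hk1 is the form known from brain and Hk2 the inducible form of muscle, tumours and proliferating cells. Hk2 had 117.9, 70.4, 40.4, 119.7 and 50.02 CPM on Days 2 to 6 of the main experiment and 78.8, 92.7, 52.3, 83.7 and 26.3 CPM in the pilot. Hk1 ranged from 2.82 to 33.5 CPM over these sums. The slope of Hk2/Hk1 was -0.32 and -0.84 per day (exact permutation adjusted p = 0.0798) and did not pass. Its 2 Day 6 values, 0.58 and 0.37, were below all 8 earlier sums. In eGFP++ cells Hk2 stood at 20.7 and 0.855 CPM, the latter from 14 reads, and the ratio at -0.68 and -1.36, below every unselected sum. Single main eGFP++ plates of the ratio spread from -3.02 to 1.58, however, around the main Day 6 plates (0.10 to 1.36). In the pilot eGFP++ sum all 39 thinned cells had neither gene. In eGFP+ cells the ratio stood at 5.06, above all other sums, with 936 Hk2 reads and 28 Hk1 reads. The edgeR difference of Hk2 between eGFP++ and Day 6 cells was -2.05 (SE 0.97, adjusted p = 0.743), and of the settings tried it passed only without the main eGFP++ sum (-5.28, edgeR adjusted p = 0.0081), which leaves the pilot's 14 reads.

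Phosphofructokinase commits sugar to glycolysis, and its liver (Pfkl), muscle (Pfkm) and platelet (Pfkp) forms differ in regulation. Pfkp had 71.96, 20.9, 12.7, 13.1 and 21.1 CPM on Days 2 to 6 of the main experiment and 143.6, 56.4, 120.03, 21.3 and 25.5 CPM in the pilot. The Day 2 sums of Pfkp were the highest unselected sums of each experiment. Its log2 difference from Day 2 to Day 6 was -2.14 (SE 0.68, edgeR adjusted p = 0.199), and in eGFP++ cells Pfkp was back at 54.8 and 210.3 CPM, a log2 difference from Day 6 of 2.17 (SE 0.68, edgeR adjusted p = 0.588). Neither passed with edgeR on the 12 sums, and both passed with DESeq2 (adjusted p = 0.026 and 0.0437). The first also passed with edgeR on the 2 groups alone (adjusted p = 0.0436) and with cells counted (9.27e-05). Of all genes, 15.5% and 3.99% passed with DESeq2 in these comparisons, and 3.62% and 38.4% in the other settings of the first. The 3 main eGFP++ plates of Pfkp lay between 51.4 and 58.6 CPM and the 4 Day 6 plates between 16.5 and 25.3 CPM. How many of all genes tested had plates apart like this was not counted. The slope of Pfkp/Pfkl was -0.60 and -0.64 per day (exact permutation adjusted p = 0.0798). All stretches of 50 bases at the 3′ end of the Pfkp transcript also occur in a transcript annotated to Pitrm1, so these counts are uncertain. Over the unselected sums Pfkl ranged from 15.4 to 88.2 CPM and Pfkm from 8.32 to 63.9 CPM, and Pfkm/Pfkl had a slope of -0.07 (adjusted p = 0.855, exact permutation).

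The bifunctional enzymes Pfkfb2, Pfkfb3 and Pfkfb4 set the level of fructose 2,6-bisphosphate, the activator of phosphofructokinase. They were sparse, at no more than 11.6, 41.05 and 7.17 CPM in any unselected sum. Pfkfb3 had 6.84 and 1.16 CPM on Day 2 and 25.2 and 30.5 CPM on Day 6. In the pilot Day 2 sum 96.7% of Pfkfb3 reads came from 1 cell, as did 99.1% on pilot Day 4. The slope of Pfkfb2/Pfkfb3 was -0.72 and -1.20 per day (exact permutation adjusted p = 0.0798), and Pfkfb4/Pfkfb3 had opposite signs in the 2 experiments, 0.68 and -0.85.

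With edgeR on the 12 sums, 0 of the 7 genes of the middle and end of the pathway described next passed a comparison, and the ranges are over the 10 unselected sums. Glucose 6-phosphate isomerase (Gpi1) ranged from 156.2 to 338.8 CPM. Triose phosphate isomerase (Tpi1) ranged from 1041 to 2108 CPM and had a log2 difference of 0.75 from Day 2 to Day 6 (SE 0.31, edgeR adjusted p = 0.322). Glyceraldehyde 3-phosphate dehydrogenase (Gapdh) ranged from 1228 to 2307 CPM; 90.5% of the 50-base stretches at its 3′ end occur in annotated copies, so its counts may be low for that reason. Phosphoglycerate kinase (Pgk1) ranged from 599 to 1361 CPM and pyruvate kinase (Pkm) from 884 to 1861 CPM. Counts per gene cannot tell the PKM1 and PKM2 splice forms of Pkm apart. Aldolase A (Aldoa) ranged from 598 to 1899 CPM and aldolase C (Aldoc), the form known from brain, from 51.1 to 205.8 CPM. The slope of Aldoc/Aldoa was 0.21 and 0.25 per day (exact permutation adjusted p = 0.083), and the ratio was lowest on Day 2 in both experiments. With cells counted in place of reads, Aldoc was higher on Day 3 than on Day 2 (log2 difference 1.01, edgeR adjusted p = 0.00344). In that setting 9.24% of all genes passed. Sorted sums outside these ranges included Gapdh with 911 and 821 CPM in eGFP++ cells, Tpi1 with 2367 CPM in main eGFP++ cells and Aldoa with 471.4 CPM in eGFP+ and 543.7 CPM in pilot eGFP++ cells.

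Enolase makes phosphoenolpyruvate, and Eno2 (gamma enolase) is the classic neuronal form. Eno2 (chr6:124760053-124769673) had 46.9, 125.4, 55.1, 194.1 and 243.6 CPM on Days 2 to 6 of the main experiment and 145.5, 354.2, 52.3, 64.1 and 679 CPM in the pilot. Day 6 was the highest unselected sum of Eno2 in both, 5.19-fold and 4.67-fold above Day 2, but the days in between crossed. The log2 difference of Eno2 from Day 2 to Day 6 was 2.19 (SE 0.84, edgeR adjusted p = 0.301) and did not pass. It passed with edgeR on the 2 groups alone (adjusted p = 0.015) and with cells counted (3.83e-11). Of all genes, 3.62% and 38.4% passed in these settings. In eGFP++ cells Eno2 stood at 1618 CPM in the main experiment, where 3 plates lay between 1576 and 1675 CPM and the 4 Day 6 plates between 175.1 and 360.6 CPM. The share of all genes with plates apart in this way was not counted. The pilot eGFP++ sum had 540.1 CPM, below the 679 CPM of pilot Day 6, whose 2 plates had 183.1 and 1046 CPM. An Eno2 read was found in 11.8% of thinned main cells on Day 2, 38.4% on Day 6 and 70.9% in eGFP++, and in 5.41%, 43.7% and 38.5% of the pilot's cells. Unthinned, the 3 Eno2 shares were 24.9%, 51.1% and 83.4% (main) and 17.3%, 64.8% and 69.2% (pilot).

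The other enolases were of little use as partners. Eno1, the widespread form, had at most 1.29 CPM, and 5 of its 10 unselected sums had under 3 reads. At its 3′ end 75.2% of the 50-base stretches also occur in Eno1b, and reads that match both places may have been left uncounted. The Eno2/Eno1 and Eno3/Eno1 slopes (0.59 and 0.28 per day, exact permutation adjusted p = 0.171 for each) thus rest on a floor of 3 reads and are given only for completeness. Eno3, the muscle form, ranged from 7.82 to 22.9 CPM over the unselected sums and had 5.48 CPM in the main eGFP++ sum.

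Monocarboxylate transporters carry lactate and pyruvate across the plasma membrane. MCT1 (Slc16a1) ranged from 11.5 to 79.3 CPM and MCT4 (Slc16a3), the exporter known from glycolytic cells, from 43.7 to 167.2 CPM in unselected cells. Slc16a1 was lowest of its days on Day 6 in the pilot (11.5 CPM), and stood at 3.61 CPM in eGFP+ and 1.19 CPM in eGFP++ cells of the main experiment, from 61 reads in the latter. In the pilot eGFP++ sum Slc16a1 stood at 7.15 CPM, with 70.1% of its reads from 1 cell. The ratio Slc16a3/Slc16a1 had a slope of 0.25 per day (exact permutation adjusted p = 0.401) and log2 values of 6.12 and 3.19 in eGFP++ cells, against 1.68 and 3.16 on Day 6.

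Pyruvate dehydrogenase kinases shut the entry of pyruvate into oxidation, and the complex itself is built from Pdha1 and Pdhb (E1) and Dlat (E2). Pdk1, a target of hypoxia-inducible factors, had 91.5 and 75.1 CPM on Day 2 and 26.1 and 29.9 CPM on Day 6, a log2 difference of -1.70 (SE 0.64, edgeR adjusted p = 0.291) that passed with DESeq2 (0.0437) and with cells counted (1.19e-05). From Day 2 to Day 6, 15.5% of all genes passed with DESeq2 and 38.4% with cells counted. Pdk3 went from 43.02 and 18.3 CPM on Day 2 to 30.2 and 59.98 CPM on Day 6. Pdk3/Pdk1 had slopes of 0.26 and 0.77 per day (exact permutation adjusted p = 0.0798), and its Day 2 values, -1.09 and -2.04, were the lowest of each experiment. Pdk2 never exceeded 3.01 CPM in an unselected sum. Pdhb had 108.5 and 137.8 CPM on Day 2 and 60.4 and 39.7 CPM on Day 6, a log2 difference of -1.37 (SE 0.49, edgeR adjusted p = 0.272) that passed with DESeq2 (0.0147). Over the unselected sums Pdha1 ranged from 25.4 to 48.5 CPM and Dlat from 24.5 to 163.1 CPM. Pdha1 lay below that range in the eGFP++ sums (17.6 and 18.8 CPM) and above it in the eGFP+ sum (51.9 CPM). Set against Ldha, the enzyme of the competing fate of pyruvate, Pdha1 had a slope of -0.12 per day (exact permutation adjusted p = 0.401).

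Cells with a neuronal transcript were then compared with cells carrying a mitotic transcript on the same days. Unselected Day 5 and Day 6 cells were sorted by their thinned reads into a class with Stmn2 and without Mki67 and Top2a and a class with Mki67 or Top2a and without Stmn2. The Stmn2 class had 29 cells on main Day 5, 4 on pilot Day 5 and 17 on pilot Day 6, and the cycling class had 61 on main Day 6, 53 on pilot Day 5 and 27 on pilot Day 6; the main Stmn2 class of Day 6 and the main cycling class of Day 5 were larger. The classes are ranges of 3 marker genes, not cell types; 18 Stmn2 cells and 40 cycling cells had a single such read. Of the 32 members, 30 had enough reads to be tested and 0 of these passed (edgeR, 8 sums, day and experiment as terms), against 1.31% of all genes tested, and 6 had an unadjusted p under 0.05, against 13.6% of genes. With DESeq2, 5 of 31 members with an adjusted p passed (16.1%), against 12.3% of genes: Eno2 and Pfkp higher in Stmn2 cells, and Hk2, Slc16a1 and Slc2a1 lower. The median log2 difference was -0.10 for the members and -0.44 for all genes.

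How many of all genes tested agreed in 4 of 4 pairs of sums was not counted. Their median difference was itself -0.44, so the counts of pairs below have no background and are given as values only. Eno2 was higher in Stmn2 cells in 4 of 4 pairs of sums, at 841, 424.6, 884 and 1097 CPM against 159.5, 62.4, 40.2 and 236.2 CPM, a log2 difference of 2.50 (SE 0.60, edgeR adjusted p = 0.0948). Eno2 passed on Day 5 alone (edgeR adjusted p = 7.69e-06) and on Day 6 alone (0.0239), where 1.31% and 1.26% of all genes passed. Slc2a1 was lower in 4 of 4 pairs, at 1351, 451.6, 530.5 and 433.03 CPM against 2104, 2088, 1215 and 815.5 CPM (log2 difference -1.35, SE 0.29, edgeR adjusted p = 0.0666, and 0.031 without a filter on low counts). Slc2a3 was lower in 1 pair and higher in 3, with a difference of 0.12 (SE 0.43, edgeR adjusted p = 0.935). Hk2 was lower in 4 of 4 pairs, at 67.6, 12.3, 0.497 and 2.62 CPM against 134.9, 88.6, 88.5 and 31.99 CPM, where the pilot Day 5 value of Stmn2 cells is 1 read (log2 difference -3.27, SE 0.98, edgeR adjusted p = 0.163). Slc16a1 was also lower in each pair, with at most 5.74 CPM in Stmn2 cells and at least 17.6 CPM in cycling cells. Ldha was lower in each pair too, by 0.67 on the log2 scale (SE 0.19, edgeR adjusted p = 0.144). The ratio Slc2a3/Slc2a1 was higher in Stmn2 cells in 4 of 4 pairs, at -2.74, -2.05, -1.66 and -1.57 against -2.96, -4.99, -3.29 and -3.10. Hk2/Hk1 was lower in 4 of 4 pairs. The ratio Ldhb/Ldha, in contrast, was higher in 3 pairs and lower on pilot Day 5, where the Stmn2 class had 4 cells.

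**Figure D5:**
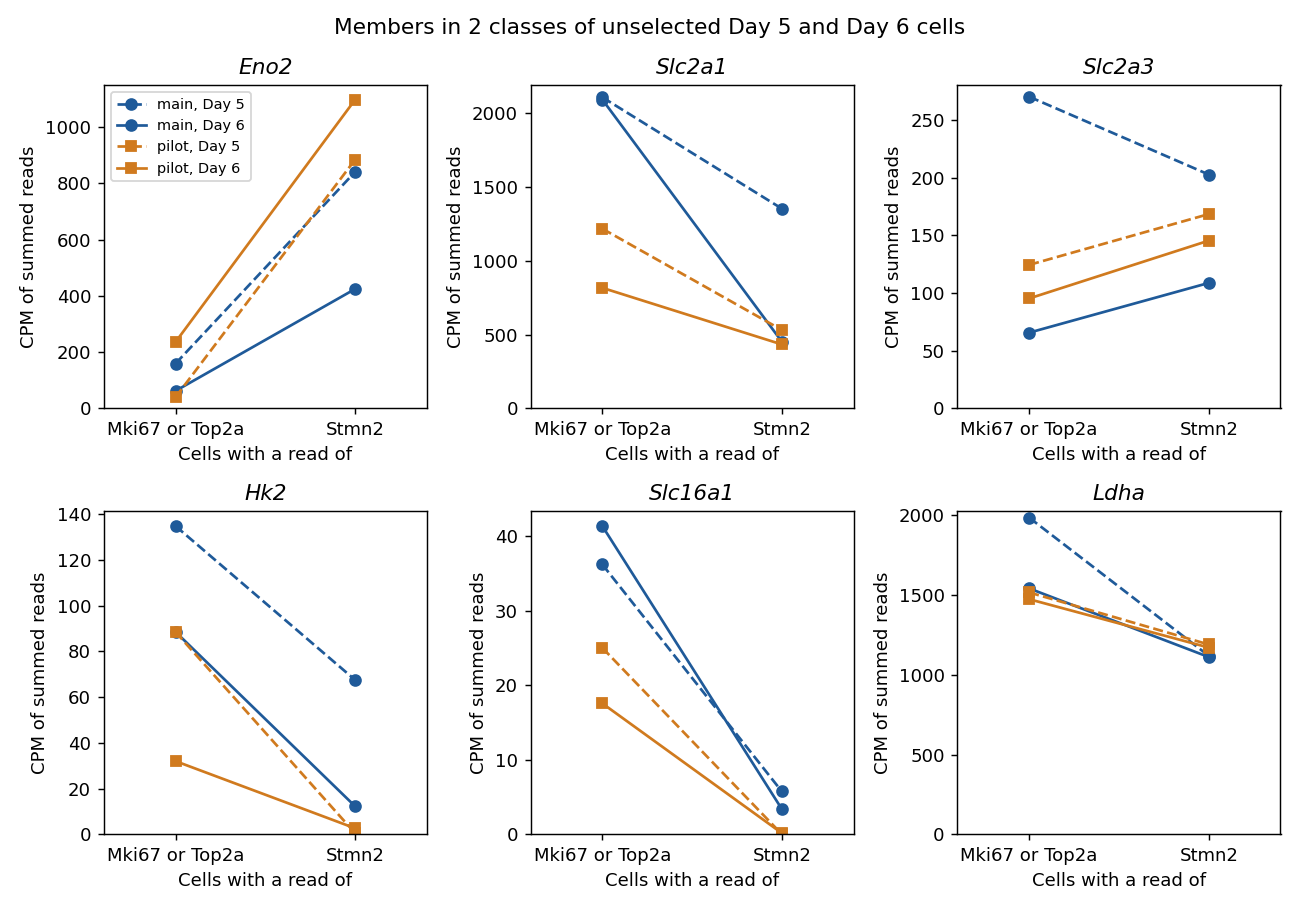
CPM of summed reads (y axis) of 6 members in unselected cells with a Mki67 or Top2a read and no Stmn2 (left of each panel) and in cells with a Stmn2 read and neither of the others (right), joined by day and experiment; dashed lines are Day 5, solid lines Day 6, circles the main experiment and squares the pilot. Eno2 was higher and Slc2a1, Hk2, Slc16a1 and Ldha were lower on the right in 4 of 4 pairs, whereas Slc2a3 crossed. The share of all genes that agreed in 4 of 4 pairs was not counted.

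Other genes around the pathway were counted by list. Of 35 further glucose and pyruvate genes, 34 were in the tables and 31 were tested, and 0 passed in any of the 6 comparisons of groups. The same held for 20 genes of hypoxia-inducible factors and their targets, for 6 genes of the Myc and Lin28 families and for 8 genes of the pentose phosphate pathway (edgeR; at an unadjusted p under 0.05, 4, 3, 2 and 1 genes of the 4 lists came up from Day 2 to Day 6, where 13.7% of all genes did). Median log2 differences from Day 2 to Day 6 were 1.92, -0.03, -1.10 and -0.44, against 0.17 for all genes. The first of these medians leans on genes with few reads, such as Hk3. In each list the 2 genes with the highest mean CPM are given. Dihydrolipoamide dehydrogenase (Dld, the E3 subunit of pyruvate dehydrogenase) had 44.4 and 74.1 CPM on Day 2 and 71.97 and 46.6 CPM on Day 6, and mitochondrial glycerol 3-phosphate dehydrogenase (Gpd2) had 93.8 and 109.2 CPM and then 32.2 and 37.8 CPM. The mitophagy receptor Bnip3l had 395.5 and 471.1 CPM on Day 2 and 568 and 606 CPM on Day 6, and Higd1a had 336.998 and 528 CPM and then 547 and 867 CPM. Mycl had 26.8 and 28.8 CPM on Day 2 and 74.01 and 172.4 CPM on Day 6, and Max, the partner of Myc proteins, had 64.9 and 121.7 CPM and then 45.6 and 26.5 CPM. Transketolase (Tkt) had 1209.9 and 1933 CPM on Day 2 and 1106 and 1363 CPM on Day 6, and transaldolase (Taldo1) had 270.9 and 233.2 CPM and then 158.9 and 205.3 CPM.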

How the data were processed

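Polyadenylated RNA of single sorted cells was sequenced with a modified CEL-seq protocol, which tags 3′ ends, per the labels' protocols. The authors deposited raw read counts per gene and cell, 1 table per plate. The submitters' processing notes name TopHat2 2.1.1, HTSeq 0.6.1 and the mm10 build. No molecular identifiers are described, so intervals cover counting error only. Of 36 tables, 1 (40 columns) matched no sample and was not used. Lines that name no gene, 34.9% of the entries' reads (25.4% not uniquely aligned, 6.16% spike-ins), stayed out of sums and tests.

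Cells with fewer than 500 detected genes were left out. Sums were tested with edgeR 4.0.16 (filterByExpr, TMM, quasi-likelihood, group and experiment as terms, 5 residual degrees of freedom, 4 for the class comparison, Benjamini-Hochberg adjustment, threshold 0.05). DESeq2 1.42.0 was an alternative. The experiment was a term because the labels name it; across genes, differences between the experiments correlated at 0.02 to 0.20 over 15 pairs of groups. For ratios and for directions within each experiment, fewer than 3 reads were set to 3. Promoters are RefSeq windows (GRCm38.p6), and gene positions come from GENCODE M21. Scripts were tested on simulated data. All 32 genes are named; full values are given for ratio pairs and for genes that passed. The genes, lists and ratios were chosen with earlier results of these data known.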

Additional observations from a re-analysis of the deposited data

How the results depend on the processing

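With 2 experiments, 5 residual degrees of freedom and values of rare genes that often rest on 1 cell, the power was low: of 50 genes of simulated data changed at each size from Day 2 to Day 6 (16271 genes), 0 were recovered at 4-fold, 17 at 16-fold and 26 at 64-fold. Cells of 1 experiment share a culture, so n is 2. The members passing from Day 2 to Day 6 numbered 5 with DESeq2, 4 when only these groups were fitted (3.62% of all genes passed), 2 with thinned cells (6.24%) and 9 of 28 when cells with a read were counted (32.1%, against 38.4% of all genes); without 1 sum each they numbered 0 to 1. Without the replicate block the number stayed at 1, and the block changed no count of members passing. The 9 were Ldhb, Slc2a3, Hk2, Pfkp, Pdk1 and Slc16a1, lower, and Eno2, Bpgm and Pfkfb3, higher. When cells with a read were counted, 5 passed from Day 2 to Day 3 (all genes 9.24%), 1 from Day 3 to Day 4 (0.596%), 3 from Day 4 to Day 5 (3.76%), 2 from Day 5 to Day 6 (3.39%) and 1 between eGFP++ and Day 6 (3.28%). DESeq2 gave 1 from Day 2 to Day 3 and 1 between eGFP++ and Day 6, where leaving out 1 sum gave 0 to 1. Between the Stmn2 and cycling classes DESeq2 gave 5, no filter on low counts 2, Day 5 alone 1 and Day 6 alone 1, and leaving out 1 sum gave 0 to 1; the gene in the last 3 was Eno2. RLE scaling moved the median log2 difference of all genes between eGFP++ and Day 6 from -0.52 to -0.40 and that of the members from -0.06 to 0.08. The cause of these moves was not tested.

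For the ratios, 8 alternative values turned sign, 10 newly passed and 23 no longer passed; the others kept direction and side of the threshold. Each experiment alone kept the 3 slopes at -0.49 and -0.45 (Slc2a3/Slc2a1), 0.31 and 0.34 (Bpgm/Pgam1) and -0.68 and -0.73 (Ldhb/Ldha) without passing. Since 1 experiment allows no p under 0.0167, adjustment over 15 ratios left it hardly able to pass. These outcomes are among the 23 and say nothing of the trends. Leaving out 1 sum gave -0.57 to -0.36, 0.25 to 0.37 and -0.87 to -0.51, and for Hk2/Hk1 -0.68 to -0.35, Pfkfb2/Pfkfb3 -1.20 to -0.47 and Eno3/Eno1 0.076 to 0.36, each of the last 3 passing in 1 of 10 settings. Bpgm/Pgam1 did not pass when cells were counted (0.17). Thinned cells let Pfkfb2/Pfkfb3 (-0.72) and Pdk2/Pdk1 (0.59) pass, and counted cells Pfkfb2/Pfkfb3 (-0.50). As Day 6 minus Day 2, Hk2/Hk1 (-3.07), Pfkfb2/Pfkfb3 (-4.65), Aldoc/Aldoa (1.33) and Pdk2/Pdk1 (3.13) passed. Slopes that turned sign were those of Pfkfb4/Pfkfb3 with 1 read added (0.0065), in the main experiment alone (0.68) and without 1 sum (-0.47 to 0.63), Eno3/Eno1 with counted cells (-0.031), and Pfkm/Pfkl in the pilot alone (0.0074) and without 1 sum (-0.20 to 0.30). The cause was not tested.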
